A study of Homo sapiens with 34 samples.

Results

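The 8 genes described here, LRRC10, ITGB1BP2, RCAN2, HTR1B, PPP1R3A, MB, CKM and CKMT2, were followed as late cardiac maturation and muscle energy genes through the differentiation of human embryonic stem cells toward cardiomyocytes. They were taken by symbol from the table of read counts, with 1 RefSeq row for each gene, and make up 8 of the 23189 genes in it. All but CKMT2 were chosen from measured values of these same libraries, since the study had placed RCAN2 in 1 of its clusters of coexpressed genes and LRRC10, ITGB1BP2, HTR1B, PPP1R3A, MB and CKM in another. CKMT2, the mitochondrial partner of CKM, stands in neither cluster, but it too was listed with earlier results of these data known. The clusters were built on all lines and days together, so the values of these 7 genes at every day are descriptions with no test of their own, as are those of CKMT2 from day 6 on.

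The cells were H1, an established human embryonic stem cell line. Wild type (WT) cells were compared with an NKX2-5 shRNA line, a ZEB2 shRNA line and a ZNF503 shRNA line, in which a short hairpin RNA lowers the targeted transcript. NKX2-5 encodes a homeodomain transcription factor of the developing heart, and ZEB2 and ZNF503 encode zinc finger proteins. Differentiation of every line began with the GSK3β inhibitor CHIR99021 on the first day, continued from day 2 with the Wnt inhibitor IWP2, and insulin was given at day 7. RNA was taken at days 0, 2, 6 and 10, and each group analysed here held 2 libraries. There is no ZNF503 shRNA group at day 10, since the study discarded those samples for poor RNA, which it ascribed to high cell death. Each knockdown is 1 shRNA line, and the WT cells carried a control vector, either empty or with a hairpin that targets GFP, so that the hairpin against a gene cannot be told apart from other differences of its line. Of 34 libraries 30 were used, because 4 of the day 10 columns of the table (WT and ZEB2 shRNA, replicates 1 and 2) were out of register with the gene names. The libraries of a group are called biological replicates by the study; whether they came from separate cultures is not given in the sources used here, and p-values measure only the spread between these libraries.

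Total counts lay between 9189943 and 90814577 per library, and those of day 10 (9189943 to 29549874) below those of day 0 (38772103 to 90814577). In the NKX2-5 shRNA line NKX2-5 stood at 1.30% of its WT level at day 6 and 1.38% at day 10, and in the ZNF503 shRNA line ZNF503 stood at 6.98% at day 6. ZEB2 in the ZEB2 shRNA line stood at 58.5% of WT at day 6 and 49.5% at day 10, and did not pass the 8-fold threshold used there. NKX2-5 itself was at 3.69% of WT in the ZNF503 shRNA line and at 53.5% in the ZEB2 shRNA line at day 6. At day 10 NKX2-5 was at 22.15% of WT in the ZEB2 shRNA line. Levels are given as CPM, the count of a gene per 1000000 reads of its library, with library sizes scaled by edgeR's TMM factors. The other targets were also low outside their own lines at day 6. Mean ZEB2 was 95.4 CPM in WT cells and 55.8 CPM in the ZEB2 shRNA line. It was lower still in the NKX2-5 shRNA line (20.5 CPM) and the ZNF503 shRNA line (11.8 CPM). Mean ZNF503 was 9.02 CPM in WT cells and 12.5 CPM in the ZEB2 shRNA line. It was 0.745 CPM in the NKX2-5 shRNA line and 0.629 CPM in the ZNF503 shRNA line. At day 10 mean ZNF503 was higher in the ZEB2 shRNA line (24.96 CPM) than in WT cells (7.761 CPM). In the NKX2-5 shRNA line it was 8.429 CPM at day 10. Mean ZEB2 at day 10 was 104.3 CPM in the NKX2-5 shRNA line and 111.1 CPM in WT cells.

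The genes cover 3 kinds of work in striated muscle. CKM (muscle creatine kinase) in the cytosol and CKMT2 (sarcomeric creatine kinase) in the mitochondria move high-energy phosphate between ATP and creatine, MB encodes myoglobin, which binds oxygen, and PPP1R3A encodes the muscle subunit that brings protein phosphatase 1 to glycogen. LRRC10, a leucine-rich repeat protein of the cardiomyocyte sarcomere, and ITGB1BP2 (melusin), a chaperone that binds the cytoplasmic tail of β1 integrin, belong to the contractile cell's structure and its response to load. RCAN2, an inhibitor of the phosphatase calcineurin, and HTR1B, a G-protein-coupled serotonin receptor, are signaling genes that are not specific to the heart. As a cell of the heart matures it shifts from glycolysis toward oxidative metabolism, and creatine kinase and myoglobin are among the genes that mark this shift.

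In WT cells LRRC10, CKM and MB had no read at day 0, and 7 of the 8 genes had their highest mean at day 10. ITGB1BP2, level between days 6 and 10, and RCAN2, read from day 0 on, departed most from a late pattern. LRRC10 (RefSeq row NM_201550; GRCh37 chr12:70002344-70004687, minus strand, a gene of 1 exon) had no read in any WT library at days 0 and 2. It stood at 0.433 and 0.144 CPM in the 2 WT libraries at day 6 and at 45.4 and 45.7 CPM at day 10. The 2 days did not overlap, and the difference was 7.49 ± 0.38 (log2 fold change ± SE), the steepest late increase of the 8.

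CKM (NM_001824; chr19:45809671-45826133, minus strand, 8 exons) also had no read in WT cells at days 0 and 2. It stood at 26.9 and 21.1 CPM at day 6, at least 302.6-fold above the level that 3 reads per library would give at day 0. It then reached 273.7 and 223.9 CPM at day 10, higher by 3.41 ± 0.17 on the log2 scale. Both day 10 libraries lay far above both day 6 libraries. Its mitochondrial counterpart CKMT2 (NM_001825; chr5:80529139-80562217, plus strand, 10 exons) was already read at day 0, at 0.614 and 1.28 CPM. It stood at 7.37 and 5.65 CPM at day 6 and at 46.5 and 31.6 CPM at day 10, a difference of 2.63 ± 0.29 that stayed short of 8-fold. The days again did not overlap.

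MB (NM_203377; chr22:36002811-36033998, minus strand, 3 exons) had no read in WT cells at day 0 and 2 reads in each library at day 2. At day 6 it stood at 11.1 and 7.03 CPM, at least 114.3-fold above 3 reads per library at day 0, and at day 10 at 36.1 and 33.9 CPM, higher by 1.99 ± 0.25. PPP1R3A (NM_002711; chr7:113516832-113715975, minus strand, 4 exons) had 8 reads in each WT library at day 0 and none at day 2. Most of its increase came by day 6, when it stood at 27.0 and 22.9 CPM, higher than day 0 by 6.88 ± 0.32. At day 10 it stood at 58.5 and 38.5 CPM, a further difference of 1.00 ± 0.21.

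ITGB1BP2 (NM_012278; chrX:70521600-70525221, plus strand, 11 exons) reached its full level by day 6. It was read in every line at day 0, at 3.92 and 4.19 CPM in WT cells, and stood at 77.8 and 57.0 CPM at day 6 and 72.0 and 60.8 CPM at day 10. The last 2 days overlapped, with a difference of 0.01 ± 0.17 whose sign turned under several alternatives, so that by these libraries it was not a late gene. RCAN2 (NM_001251974; chr6:46188473-46459709, minus strand, 5 exons) was read at every day. It stood at 8.22 and 7.46 CPM in WT cells at day 0, 18.9 and 20.4 CPM at day 2, 18.6 and 20.1 CPM at day 6 and 103.8 and 81.4 CPM at day 10, the last difference being 2.29 ± 0.15.

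HTR1B (NM_000863; chr6:78170641-78173208, minus strand, a gene of 1 exon) was the member with the fewest reads for its length in WT cells at day 10. It had 12 and 0 reads in WT cells at day 0 and 6 and 0 at day 2. It stood at 1.43 and 2.07 CPM at day 6 and at 11.7 and 23.3 CPM at day 10, higher by 3.32 ± 0.60, and its 2 day 10 libraries differed by a larger ratio than those of any other member.

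From day 0 to day 6 in WT cells 6 of the 8 genes (all but RCAN2 and CKMT2) passed 8-fold at a false discovery rate (FDR) of 1% toward higher levels, as did 6.28% of all genes tested. From day 6 to day 10, 3 of 8 did so (LRRC10, HTR1B and CKM), beside 2.73% of all genes tested. HTR1B lost its call in both steps with DESeq2, in the first step without WT day 0 replicate 2 or either WT day 6 library (log2 fold changes over these of 2.47 to 3.68), and in the second without WT day 6 replicate 1 or WT day 10 replicate 4 (2.73 to 3.35). LRRC10, with 10 and 6 reads at day 6, lost its call in the first step without either WT day 0 library or WT day 6 replicate 1, with a prior count of 2 and in 1 fit of all libraries, where its log2 fold change ranged from 2.16 to 6.34 beside 5.81. The median of the 8 genes between days 6 and 10 was 2.46, beside -0.01 over all genes tested. These counts lie along the axis on which the genes were grouped and are no evidence that maturation genes as a class rise. The plot of levels by day shows each library.

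**Figure D1:**
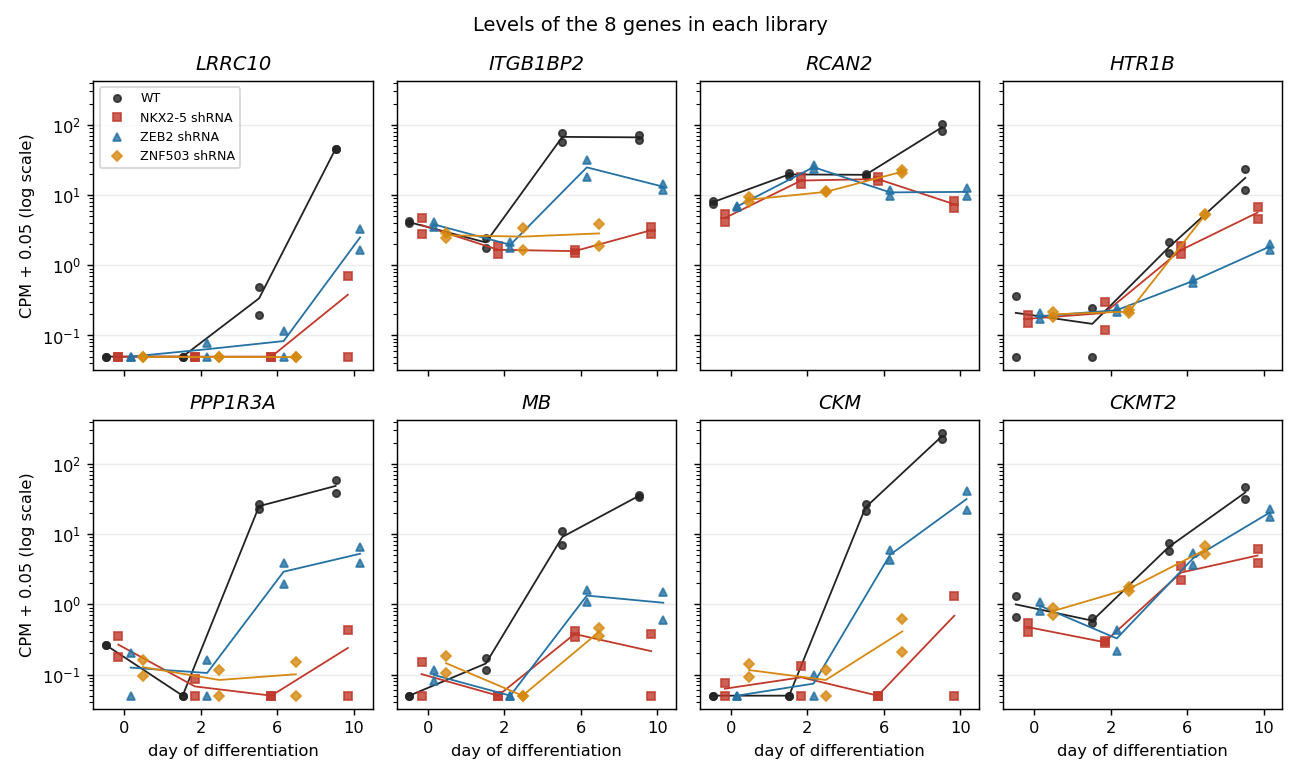
Level of each gene in CPM (log axis, with 0.05 added so that 0 can be drawn) against day of differentiation. Points are libraries, 2 per group, set side by side by line, days are evenly spaced, lines join the group means, and colors mark WT and the NKX2-5, ZEB2 and ZNF503 shRNA lines; in WT cells LRRC10 goes from 0.433 and 0.144 CPM at day 6 to 45.4 and 45.7 CPM at day 10, whereas ITGB1BP2 is level between these days and RCAN2 is present from day 0.

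Levels of different genes can be compared only per length of transcript. The length used here holds exons only, and whether reads in introns were counted is not given in the sources used here. RCAN2 spans 271237 bases for a transcript of 3416, whereas LRRC10 and HTR1B have 1 exon. The part of intron reads in the order below was not tested. Over CPM per kilobase of the canonical transcript in WT cells at day 10, CKM was highest at 159.9 ± 22.6 (SD, n = 2), and ITGB1BP2 followed at 51.9 ± 6.19. MB stood at 32.7 ± 1.46, RCAN2 at 27.1 ± 4.64 and CKMT2 at 26.5 ± 7.13, and the last pair differed by less than its spread. LRRC10 at 19.4 ± 0.0886 lay within 1 SD of CKMT2, and PPP1R3A at 11.2 ± 3.26 and HTR1B, the lowest, at 6.82 ± 3.20 had libraries that overlapped. CKM thus exceeded its mitochondrial counterpart in both libraries.

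The reads of CKMT2 need care. An antisense gene, CKMT2-AS1, overlaps all of it on the other strand, and whether the counting used strand is not given in the sources used here. CKMT2-AS1 had a level of 7.17 ± 0.647 CPM in WT cells at day 6 and 11.0 ± 0.738 CPM at day 10, and it differed little between lines at day 10 (-0.17 ± 0.26 in the NKX2-5 shRNA line and 0.08 ± 0.26 in the ZEB2 shRNA line). The range of its group means over all lines and days, 6.42 to 11.7 CPM, was narrow beside that of CKMT2. In the NKX2-5 shRNA line at day 2 the mean of CKMT2 was 0.239 CPM where that of CKMT2-AS1 was 8.71 CPM. Reads of the 2 genes in a shared stretch cannot be told apart without strand, and the share of CKMT2-AS1 in the CKMT2 count was not tested. MB is overlapped on its own strand by a long noncoding RNA gene that had no row used here.

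The promoters of 4 genes are shown because these genes mark the ends of the response described next: no NKX2-5 shRNA library at day 6 held more than 3 reads of LRRC10, PPP1R3A or CKM, and CKMT2 was the member with the smallest difference from WT at day 10 in the ZEB2 shRNA line. Each runs 5′ to 3′ on the gene's strand from 250 bases before to 50 bases after the RefSeq start (GRCh38.p14), and capitals mark a match to a motif searched.

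LRRC10: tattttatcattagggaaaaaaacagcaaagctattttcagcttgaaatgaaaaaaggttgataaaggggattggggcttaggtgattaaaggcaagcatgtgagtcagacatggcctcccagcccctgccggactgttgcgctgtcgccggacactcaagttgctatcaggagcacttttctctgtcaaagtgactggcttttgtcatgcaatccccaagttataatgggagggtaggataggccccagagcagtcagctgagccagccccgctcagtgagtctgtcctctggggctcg
PPP1R3A: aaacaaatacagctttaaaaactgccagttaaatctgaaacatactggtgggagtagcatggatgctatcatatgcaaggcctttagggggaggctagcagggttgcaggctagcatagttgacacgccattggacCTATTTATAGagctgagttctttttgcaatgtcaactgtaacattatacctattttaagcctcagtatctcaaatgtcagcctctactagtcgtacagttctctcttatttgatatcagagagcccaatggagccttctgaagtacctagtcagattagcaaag
CKM: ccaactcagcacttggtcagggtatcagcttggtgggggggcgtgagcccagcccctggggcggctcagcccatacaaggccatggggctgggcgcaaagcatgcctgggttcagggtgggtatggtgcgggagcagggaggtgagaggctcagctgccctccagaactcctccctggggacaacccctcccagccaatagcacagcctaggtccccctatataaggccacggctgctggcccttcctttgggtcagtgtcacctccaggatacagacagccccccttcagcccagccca
CKMT2: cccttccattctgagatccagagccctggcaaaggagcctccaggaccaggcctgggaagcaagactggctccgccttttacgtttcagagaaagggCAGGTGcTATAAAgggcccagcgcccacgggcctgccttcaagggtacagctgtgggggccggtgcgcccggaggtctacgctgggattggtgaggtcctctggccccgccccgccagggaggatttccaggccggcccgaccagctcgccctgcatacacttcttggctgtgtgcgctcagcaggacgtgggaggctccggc

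These windows lie at chr12:69610858-69611157, chr7:113918960-113919259, chr19:45322826-45323125 and chr5:81233072-81233371, the first 3 on the minus strand. In all 6 motifs were searched on both strands: the NKX2-5 motif TNAAGTG, the GATA motif AGATAA, the ZEB E-box CACCTG, the TATA box TATAAA, the MEF2 motif and the CArG box. The capitals in CKMT2 are a ZEB E-box on the other strand, from base -153 to -148, and a TATA box from -146 to -141. Those in PPP1R3A are a MEF2 motif from -114 to -105 that contains a TATA box match on the other strand, from -111 to -106. The LRRC10 and CKM windows held no match to any of the 6.

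Over the 12 windows of the 8 genes, the ZEB E-box was found in 4 (2 of MB, 1 of RCAN2 and the CKMT2 window), beside 20.6% of 34943 RefSeq promoters. The NKX2-5 motif was found in 1 (RCAN2, where it overlaps the E-box; 10.2% of promoters), the GATA motif in 1 (RCAN2; 10.4%), the MEF2 motif in 1 (3.0%), the TATA box in 2 (11.6%) and the CArG box in 0 (1.3%). A match describes letters in the window, and an absent match says only that these letters are not in it.

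The comparison of the NKX2-5 shRNA line with WT asks which of the genes stand lower when NKX2-5 is lowered. At day 6 PPP1R3A and CKM had no read in either NKX2-5 shRNA library, while WT cells stood at 27.0 and 22.9 CPM for PPP1R3A and at 26.9 and 21.1 CPM for CKM. Against the level of 3 reads per library, PPP1R3A was at least 293-fold lower and CKM at least 281.5-fold lower. Both genes were thus not detectable at this depth in the NKX2-5 shRNA line, while every WT library held them.

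ITGB1BP2 stood at 1.62 and 1.46 CPM in the NKX2-5 shRNA line at day 6 (-5.47 ± 0.35 against WT), below its own level at day 0 in both libraries. MB stood at 0.294 and 0.361 CPM (-4.75 ± 0.39). CKMT2 was lower by a smaller step, at 3.42 and 2.14 CPM against 7.37 and 5.65 CPM (-1.25 ± 0.31). RCAN2, at 17.8 and 16.0 CPM (-0.21 ± 0.16), and HTR1B, at 1.40 and 1.80 CPM (-0.14 ± 0.31), were near their WT levels. LRRC10 had no read, but WT itself had only 10 and 6, so that it was at least 3.39-fold lower and was not tested. Of 7 members tested at day 6, 4 passed 8-fold at 1% FDR toward lower levels, beside 3.42% of all genes. The genes past the threshold were PPP1R3A, CKM, MB and ITGB1BP2. The metabolic gene CKMT2 and the signaling genes RCAN2 and HTR1B were not among them.

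At day 10 all 8 genes were below WT in the NKX2-5 shRNA line with no overlap of libraries. The share of all genes without overlap was not counted. Of the 8, 6 passed 8-fold at 1% FDR, beside 2.85% of all genes tested that did so toward lower levels. At 5% FDR without a fold threshold 8 of 8 passed, and 7460 of 17004 genes tested did so in either direction. CKM stood at 0 and 1.28 CPM against 273.7 and 223.9 CPM in WT cells (-8.59 ± 0.94), a mean of 0.256% of WT. PPP1R3A stood at 0 and 0.378 CPM (-7.95 ± 0.80), MB at 0 and 0.331 CPM (-7.67 ± 0.86) and LRRC10 at 0 and 0.662 CPM (-7.07 ± 0.89). The median of the 8 genes was -5.74, beside 0.03 over all genes tested. All 4 of the genes just named had no read in replicate 1 and had 27, 8, 7 and 14 reads in replicate 2.

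Of 6 cardiomyocyte markers, 5 were also higher in replicate 2 than in replicate 1, and TTN (titin) was not. TNNT2, cardiac troponin T, stood at 1.34 CPM in replicate 1 and 39.9 CPM in replicate 2, and MYH6, the atrial myosin heavy chain, at 3.86 and 81.7 CPM. ACTN2 (sarcomeric α-actinin) stood at 1.77 and 12.5 CPM, MYL7 (atrial myosin light chain) at 38.5 and 164.4 CPM and MYH7 (β-myosin heavy chain) at 7.16 and 10.6 CPM. TTN stood at 4128 CPM in replicate 1 and 2790 CPM in replicate 2. NKX2-5 itself stood at 0.668 and 3.12 CPM. The part of this difference between libraries in the levels of the 4 genes was not tested. The level of 3 reads in replicate 1 is 0.143 CPM, the limit taken here for 0 reads. This limit treats reads as independent and is too low where both reads of a pair were counted.

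ITGB1BP2 stood at 2.72 and 3.50 CPM in the NKX2-5 shRNA line at day 10 (-4.41 ± 0.27), a mean of 4.68% of WT. RCAN2 stood at 6.44 and 8.27 CPM against 103.8 and 81.4 CPM in WT cells (-3.65 ± 0.26), although it had been near its WT level at day 6. CKMT2, at 3.82 and 6.00 CPM (-2.99 ± 0.34), lay just outside 8-fold. HTR1B, at 6.63 and 4.54 CPM (-1.64 ± 0.42), was the least lowered, at 31.9% of WT. The number of calls depended on WT: it was 3 without WT day 10 replicate 3 and 4 without WT day 10 replicate 4, when CKM, LRRC10 and MB lost their calls with fold changes almost unmoved.

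Within the NKX2-5 shRNA line the members were also compared between days 6 and 10. Of 5 members with enough reads, 0 passed 8-fold at 1% FDR by edgeR's quasi-likelihood test or by DESeq2, and 3 had an unadjusted p under 0.05, beside 5.53% of all genes that passed in either direction. The log2 difference was -1.24 ± 0.25 for RCAN2 and 1.74 ± 0.49 for HTR1B, with no overlap of the days for either. It was 0.97 ± 0.38 for ITGB1BP2, 0.78 ± 0.40 for CKMT2 and -1.03 ± 1.33 for MB.

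The change from day 6 to day 10 in the NKX2-5 shRNA line was then set against that in WT cells. The log2 difference of the 2 changes was -3.43 ± 0.29 for RCAN2 and -1.73 ± 0.48 for CKMT2, and these 2 of 8 genes passed 5% FDR toward a lower change, as did 10.5% of all genes tested. CKMT2 lost the call when NKX2-5 shRNA day 6 replicate 1, WT day 10 replicate 3 or WT day 6 replicate 2 was left out. HTR1B (-1.49 ± 0.54), ITGB1BP2 (1.06 ± 0.41) and MB (-2.91 ± 1.00) did not pass by edgeR's quasi-likelihood test, whereas DESeq2 also called HTR1B, MB and PPP1R3A, and for LRRC10, PPP1R3A and CKM a group at the limit of detection leaves the difference of the changes without a usable value.

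The ZNF503 shRNA line, analysed here up to day 6, also held low levels of the muscle genes at that day. PPP1R3A stood at 0.102 and 0 CPM, at least 182-fold below WT against the level of 3 reads per library. CKM stood at 0.560 and 0.162 CPM (-6.12 ± 0.41), MB at 0.305 and 0.405 CPM (-4.64 ± 0.41) and ITGB1BP2 at 3.77 and 1.82 CPM (-4.62 ± 0.34). These 4 of 7 tested members passed 8-fold at 1% FDR toward lower levels, beside 2.91% of all genes. LRRC10 had no read and was at least 2.11-fold lower, without a test.

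The other 3 genes stood apart from these in the ZNF503 shRNA line. CKMT2 at 6.82 and 5.11 CPM (-0.13 ± 0.30) overlapped its WT libraries, and RCAN2 at 20.7 and 22.4 CPM lay slightly above them (0.14 ± 0.16). HTR1B stood at 5.14 and 5.35 CPM against 1.43 and 2.07 CPM, a higher level by 1.56 ± 0.31 that did not reach 8-fold. The 3 lines share their WT libraries, so that a high or low WT value moves all comparisons of a day together.

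In the ZEB2 shRNA line at day 6 the muscle genes were read in every library but 1 of LRRC10. CKM stood at 5.84 and 4.20 CPM (-2.22 ± 0.29 against WT), MB at 1.53 and 1.03 CPM (-2.73 ± 0.34) and ITGB1BP2 at 31.7 and 17.9 CPM (-1.41 ± 0.28). PPP1R3A, at 3.81 and 1.92 CPM (-3.02 ± 0.33), was the only member past 8-fold at 1% FDR, 1 of 7 tested, beside 0.225% of all genes toward lower levels. It lies on the edge of 8-fold: it lost the call without normalization factors, with a prior count of 2, without WT day 6 replicate 1 and without ZEB2 shRNA day 6 replicate 2. RCAN2 stood at 12.0 and 9.81 CPM (-0.81 ± 0.16), HTR1B at 0.583 and 0.516 CPM (-1.65 ± 0.36) and CKMT2 at 5.38 and 3.61 CPM (-0.48 ± 0.30). LRRC10 had 4 and 0 reads and was not tested. All 8 genes nonetheless had both ZEB2 shRNA libraries below both WT libraries, and how many of all genes did so was not counted. At 5% FDR without a fold threshold 6 of 7 members passed, and 1810 of 16443 genes tested did so in either direction.

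At day 10 all 8 genes were again below WT in the ZEB2 shRNA line without overlap, and the share of all genes without overlap was not counted. Of the 8, 4 passed 8-fold at 1% FDR, beside 0.482% of all genes toward lower levels. At 5% FDR without a fold threshold 7 of 8 passed, and 3100 of 17004 genes tested did so in either direction. The median of the 8 genes was -3.15, beside 0.03 over all genes tested. MB was the lowest relative to WT, at 1.45 and 0.555 CPM against 36.1 and 33.9 CPM (-5.09 ± 0.70), a mean of 2.87% of WT. LRRC10 stood at 3.28 and 1.62 CPM (-4.21 ± 0.72), RCAN2 at 12.4 and 9.73 CPM (-3.07 ± 0.26) and HTR1B at 1.98 and 1.62 CPM (-3.28 ± 0.45). These 4 calls came from an oxygen carrier, a sarcomere gene and both signaling genes.

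PPP1R3A, at 6.52 and 3.88 CPM (-3.22 ± 0.57), passed the fold but not the FDR, and CKM, at 41.0 and 21.9 CPM (-2.99 ± 0.69), passed neither although it stood at 12.6% of WT. ITGB1BP2 stood at 11.7 and 14.6 CPM (-2.35 ± 0.24), and CKMT2 at 22.9 and 17.6 CPM (-0.96 ± 0.31), 51.9% of WT. Thus the 2 creatine kinases differed in how far below WT they lay. This comparison was the most fragile: with any 1 of its 4 libraries left out, 0 members and 0 of all genes passed 8-fold at 1% FDR by edgeR's quasi-likelihood test, with 1 residual degree of freedom fewer, while 7 or 8 of the 8 members still had an unadjusted p under 0.05. With all 4 libraries DESeq2 called 4 members too, but with PPP1R3A in place of LRRC10, and the edgeR exact test called 5, PPP1R3A being the one added. Without normalization factors LRRC10 and RCAN2 lost their calls. In bulk RNA, fewer cardiomyocytes in a culture and less RNA of a gene per cardiomyocyte cannot be told apart.

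**Figure D2:**
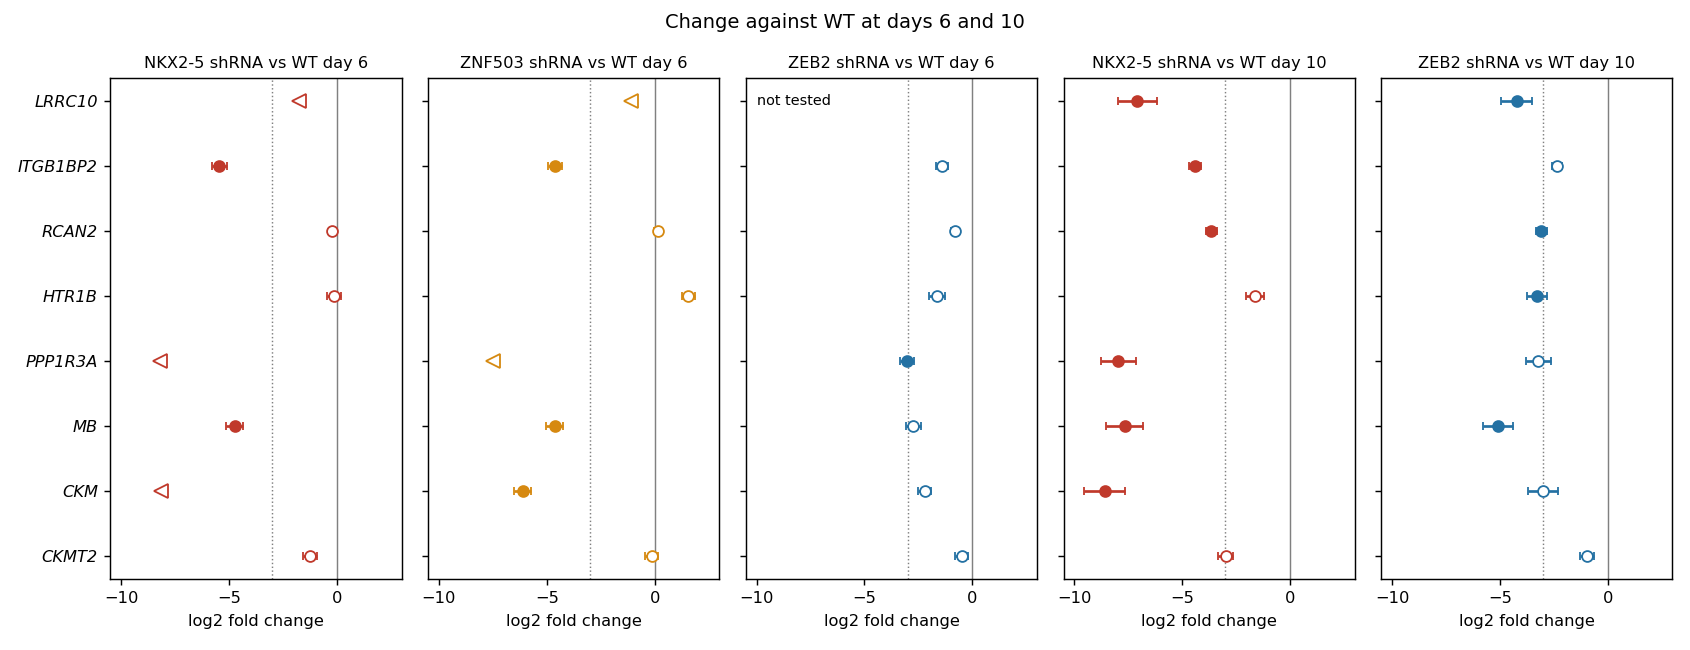
Log2 fold change against WT (± SE) of each gene in the NKX2-5, ZNF503 and ZEB2 shRNA lines at day 6 and in the NKX2-5 and ZEB2 shRNA lines at day 10. Filled points passed 8-fold (dotted line) at 1% FDR, open points did not, open triangles are bounds from 3 reads per library, and LRRC10 was not tested in the ZEB2 shRNA line at day 6; CKM, PPP1R3A and MB lie below -2 in all 5 comparisons, and CKMT2 lies between -3 and 0 in all 5.

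The ZEB2 shRNA line held higher levels of some of the genes at day 10 than at day 6. This change is set against that in WT cells below. Whether it differs from that in the NKX2-5 shRNA line was not tested. LRRC10 was higher by 5.46 ± 0.78 and passed 8-fold at 1% FDR, 1 of 8 members beside 3.48% of all genes that did so toward higher levels. CKM (2.59 ± 0.31), CKMT2 (2.11 ± 0.28), HTR1B (1.67 ± 0.44) and PPP1R3A (0.77 ± 0.53) had positive differences short of it. RCAN2, at 12.0 and 9.81 CPM at day 6 and 12.4 and 9.73 CPM at day 10, stood still, ITGB1BP2 had a difference of -0.96 ± 0.25, and MB one of -0.39 ± 0.52.

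Set against the change in WT cells, that of RCAN2 from day 6 to day 10 had a log2 difference of -2.27 ± 0.28 in the ZEB2 shRNA line, the single member (1 of 8) past 5% FDR, beside 2.48% of all genes toward a lower change. For CKM (-0.79 ± 0.73), CKMT2 (-0.47 ± 0.46) and PPP1R3A (-0.19 ± 0.68) the difference of the changes was close to or below its standard error. For HTR1B (-1.64 ± 0.58), ITGB1BP2 (-0.94 ± 0.37), MB (-2.35 ± 0.75) and LRRC10 (-2.01 ± 1.80) it was negative but did not pass. By this test RCAN2 was the single member past 5% FDR in both lines, whereas MB also passed in both with DESeq2 and in 1 fit of all libraries. At day 10 RCAN2 stood at 7.94% of WT in the NKX2-5 shRNA line and 11.9% in the ZEB2 shRNA line.

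The markers of cardiomyocytes were themselves low in the knockdown lines. TNNT2 had a mean level of 1673 CPM in WT cells at day 10, 363.6 CPM in the ZEB2 shRNA line and 20.6 CPM in the NKX2-5 shRNA line, and 8.6 CPM in the ZNF503 shRNA line at day 6 against 1281 CPM in WT cells. The summed level of the 6 markers TNNT2, ACTN2, MYH6, MYH7, MYL7 and TTN ranged from 65420 to 74490 CPM in WT cells at day 10, from 12410 to 17190 CPM in the ZEB2 shRNA line and from 3099 to 4181 CPM in the NKX2-5 shRNA line. TTN made up most of it.

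The levels were therefore also taken relative to the 5 markers other than TTN, a choice made after the values were seen, in the 4 groups of WT cells and the ZEB2 shRNA line at days 6 and 10. In WT cells CKM went from 2.72 to 18.5 CPM per 1000 CPM of these markers between the days, LRRC10 from 0.0314 to 3.43, HTR1B from 0.205 to 1.37, CKMT2 from 0.737 to 2.88, RCAN2 from 2.23 to 6.88 and MB from 1.02 to 2.62 (means of 2 libraries). PPP1R3A went from 2.84 to 3.57, and ITGB1BP2 went down from 7.61 to 4.95. Relative to the sum of these markers, 7 of the genes thus stood higher at day 10 than at day 6. Their libraries did not overlap, and ITGB1BP2 stood lower. How many of all genes did so was not counted. MYH6 and MYL7 made up most of the sum, whereas ACTN2 went from 172.4 CPM in both libraries to 852.0 and 675.6 CPM. Ratios to single markers were not taken.

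At day 10 the ZEB2 shRNA line lay below WT on this relative scale, without overlap, for 7 of the 8 genes. MB stood at 0.222 against 2.62, LRRC10 at 0.556 against 3.43, HTR1B at 0.430 against 1.37, CKM at 7.20 against 18.5, RCAN2 at 2.63 against 6.88 and PPP1R3A at 1.20 against 3.57. ITGB1BP2 was closest, its libraries spanning 2.26 to 4.27 against 4.83 to 5.07 in WT cells. CKMT2 went the other way, with 4.45 to 5.16 against 2.64 to 3.12. Relative to the sum of the 5 markers, then, the ZEB2 shRNA line held less of 7 genes and more CKMT2. The markers themselves were lowered unevenly. MYL7 stood at 1729 and 1330 CPM against 3714 and 2837 CPM in WT cells. ACTN2 stood at 138.1 and 101.4 CPM against 852.0 and 675.6 CPM. The counts of genes hold for this sum only, and how many of all genes lacked overlap was not counted. With 2 libraries a group the ratios to the sum were given no test.

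**Figure D3:**
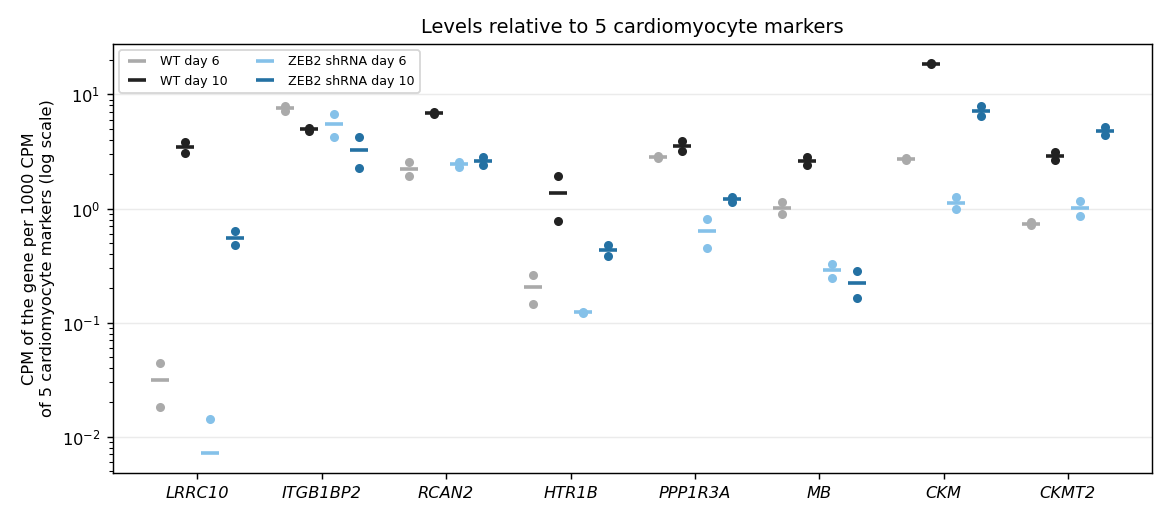
CPM of each gene per 1000 CPM of 5 cardiomyocyte markers (TNNT2, ACTN2, MYH6, MYH7 and MYL7; log axis) in WT cells and the ZEB2 shRNA line at days 6 and 10. Points are libraries and bars are means, and the ZEB2 shRNA day 6 library of LRRC10 at 0 is not drawn; at day 10 the ZEB2 shRNA libraries lie below both WT libraries for every gene but CKMT2, which lies above.

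Other cells of the cultures were followed by markers too. The summed level of 6 hepatic markers, which also mark early endoderm, was 29340 to 41400 CPM in the NKX2-5 shRNA line at day 10, 7346 to 8733 CPM in the ZEB2 shRNA line and 1552 to 3861 CPM in WT cells. That of 8 erythroid markers was 2107 to 2675 CPM in the NKX2-5 shRNA line, 5.87 to 10.2 CPM in the ZEB2 shRNA line and 17.2 to 101.1 CPM in WT cells. The 4 smooth muscle markers summed to 609.9 to 885.6 CPM in WT cells at day 10, 447.2 to 760.9 CPM in the NKX2-5 shRNA line and 525.8 to 633.1 CPM in the ZEB2 shRNA line. The 4 endothelial markers summed to 343.4 to 438.7, 143.7 to 239.9 and 360.4 to 432.4 CPM in the same order. KDR, a receptor of vascular endothelial growth factor, gave most of the endothelial sum in WT cells (373.4 ± 53.0 CPM) and stood at 70.7 ± 34.9 CPM in the NKX2-5 shRNA line and 357.8 ± 44.2 CPM in the ZEB2 shRNA line. The other 3 had positive fold changes in both lines: PECAM1 (5.04 ± 0.66) and CDH5 (3.67 ± 0.53) passed 8-fold at 1% FDR toward higher levels in the NKX2-5 shRNA line, beside 4.46% of all genes, and the median of the 4 was 3.04 there. In the ZEB2 shRNA line 0 of the 4 passed by edgeR's quasi-likelihood test or DESeq2, with 2 at an unadjusted p under 0.05 and a median of 1.62. The 3 pluripotency markers summed to at most 2.37 CPM in any of these libraries. The part of these other cells in the levels of the 8 genes was not tested.

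CKM, MB and PPP1R3A are also genes of skeletal muscle. Of 11 skeletal muscle markers, MYOD1, MYF5, MYF6, TNNI2, MYH1, MYH2 and MYH8 had at most 3 reads in each WT library at day 10. The summed level of the 11 was 51.3 to 53.5 CPM there, of which ACTN3 gave 47.8 ± 1.54 CPM. MYOG (myogenin), a myogenic factor like MYOD1, stood at 0.529 ± 0.165 CPM there, with at most 8 reads in a library. The part of skeletal muscle cells in the levels of the 3 genes was not tested.

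At days 0 and 2 an adjusted p (edgeR quasi-likelihood, Benjamini-Hochberg over all genes) is given for CKMT2 alone, since the values of the other genes at these days entered the clusters by which they were chosen. CKMT2 was also listed with earlier results of these data known, so its p-values are not independent of that choice. LRRC10, CKM, MB and HTR1B had too few reads at either day to be tested, and PPP1R3A too few at day 2. In the NKX2-5 shRNA line at day 0, CKMT2 stood at 0.488 and 0.358 CPM against 0.614 and 1.28 CPM in WT cells, a difference of -1.20 ± 0.45 (adjusted p = 0.0923). It passed the thresholds used at day 0 (2-fold at 10% FDR), as 1 of 4 tested, beside 1.4% of all genes toward lower levels. That call rests on few reads, and it was lost without either NKX2-5 shRNA library, without WT day 0 replicate 2, with DESeq2, with replicate number as a block and in 1 fit of all libraries, the log2 fold change over these ranging from -1.42 to -0.57. RCAN2 was lower in both libraries, at 4.03 and 5.30 CPM against 8.22 and 7.46 CPM (-0.76 ± 0.19), short of 2-fold.

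In the ZEB2 shRNA and ZNF503 shRNA lines at day 0, 0 of 4 members passed by edgeR's quasi-likelihood test or by DESeq2, beside 2.2% and 2.56% of all genes in either direction. None of the 4 in the ZEB2 shRNA line and 1 of the 4 in the ZNF503 shRNA line had an unadjusted p under 0.05. For CKMT2 the difference was -0.10 ± 0.41 (adjusted p = 0.922) in the first and -0.34 ± 0.42 (adjusted p = 0.655) in the second.

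At day 2 the threshold was 4-fold at 10% FDR, and 0 of 3 tested members (ITGB1BP2, RCAN2 and CKMT2) passed in any line by edgeR's quasi-likelihood test, the edgeR exact test or DESeq2. The background in either direction was 1.19% of all genes in the NKX2-5 shRNA line, 0.133% in the ZEB2 shRNA line and 2.8% in the ZNF503 shRNA line, and 2, 0 and 2 members had an unadjusted p under 0.05. In the ZNF503 shRNA line CKMT2 stood at 1.74 and 1.49 CPM against 0.579 and 0.491 CPM in WT cells (1.52 ± 0.44, adjusted p = 0.0196), and RCAN2 at 10.9 and 11.2 CPM against 18.9 and 20.4 CPM (-0.88 ± 0.15). Both differences were larger than the spread between libraries but smaller than 4-fold. In the NKX2-5 shRNA line CKMT2 at day 2 differed by -1.23 ± 0.55 (adjusted p = 0.112), and in the ZEB2 shRNA line by -0.98 ± 0.53 (adjusted p = 0.635).

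The genes that work beside the 8 were followed from textbook lists. Their counts of genes past 8-fold at 1% FDR stand beside the shares over all genes tested, which were 2.73% higher and 1.21% lower from day 6 to day 10 in WT cells, 2.85% lower and 4.46% higher in the NKX2-5 shRNA line at day 10, 0.482% lower and 0.976% higher in the ZEB2 shRNA line at day 10, and 3.42% lower and 1.29% higher in the NKX2-5 shRNA line at day 6. Of 8 muscle energy genes, 1 passed 8-fold at 1% FDR toward higher levels from day 6 to day 10 in WT cells, and 5 were lower in the NKX2-5 shRNA line at day 10, with a median of -3.40 beside 0.03 over all genes. Its named genes were COX7A1, a muscle subunit of cytochrome c oxidase (3.92 ± 1.05 in WT cells from day 6 to day 10), COX6A2, another such subunit (-5.59 ± 1.10 in the NKX2-5 shRNA line at day 10), and ENO3, muscle enolase (-4.45 ± 0.49 there). At day 10 in the ZEB2 shRNA line 0 of the 8 passed by edgeR's quasi-likelihood test and 1 by DESeq2, with 7 at an unadjusted p under 0.05 and a median of -2.26.

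Of 12 genes of calcium handling and sarcomere maturation, 9 were tested over time and 3 were higher at day 10 than at day 6 in WT cells, of which DESeq2 called 1. Against WT, 6 of 9 were lower in the NKX2-5 shRNA line at day 10 (2.85% of all genes; median -5.32, or -4.25 with genes at the limit of detection placed at their bound), and 3 of 9 in the ZEB2 shRNA line (0.482% of all genes; median -2.57). LRRC39, a leucine-rich repeat protein of the M-band, was higher by 4.94 ± 0.24 at day 10 in WT cells and differed by -3.99 ± 0.29 in the ZEB2 shRNA line. SRL (sarcalumenin), a calcium-binding protein of the sarcoplasmic reticulum, differed by -8.16 ± 0.77 in the NKX2-5 shRNA line and by -4.39 ± 0.59 in the ZEB2 shRNA line at day 10, and TRDN (triadin) by -7.91 ± 0.71 in the NKX2-5 shRNA line. HRC, the histidine-rich calcium-binding protein, differed by -9.59 ± 0.49 in the NKX2-5 shRNA line at day 6, and MYOM3, an M-band protein, was higher by 3.96 ± 1.01 at day 10 in WT cells.

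Of 24 glycogen genes, 2 were lower and 0 higher in the NKX2-5 shRNA line at day 10, with a median of -1.13, and 0 passed in the ZEB2 shRNA line by edgeR's quasi-likelihood test or DESeq2, with 14 at an unadjusted p under 0.05 (median -0.64, or -0.70 with bounds). The 2 were PYGM, muscle glycogen phosphorylase (-7.21 ± 0.62), and PPP1R3C, another glycogen-targeting subunit of the phosphatase (-4.11 ± 0.50). From day 6 to day 10 in WT cells, 2 of 23 were higher (PPP1R3G and PHKG1, both at no more than 3 reads in each library at day 6).

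Of 6 creatine genes other than the members, 0 passed by edgeR's quasi-likelihood test at day 10 in either line or between days 6 and 10 in WT cells. Their medians were 0.99 in the NKX2-5 shRNA line, 0.56 in the ZEB2 shRNA line and 0.02 between the days, with 6, 3 and 2 genes at an unadjusted p under 0.05 and 1, 0 and 0 called by DESeq2. At day 6, 2 of 6 were lower in the NKX2-5 shRNA line. They were the ubiquitous mitochondrial creatine kinase genes CKMT1A (-3.36 ± 0.61) and CKMT1B (at no more than 3 reads in each NKX2-5 shRNA library), near-identical copies whose reads cannot be assigned with certainty. At day 10, 4 of the 6 had a positive fold change in each line, where that of CKM was negative.

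Of 11 calcineurin pathway genes tested over time, 1 was higher at day 10 in WT cells, the transcription factor gene NFATC2 (3.12 ± 0.19), and 0 passed at day 10 in the NKX2-5 shRNA line or the ZEB2 shRNA line by edgeR's quasi-likelihood test or DESeq2 (7 and 4 at an unadjusted p under 0.05, medians -0.39 and -0.10). Of 12 integrin-linked genes, 0 passed by either tool between days 6 and 10 in WT cells or at day 10 in the 2 lines, with medians of -0.10, 0.19 and -0.14 and 6, 8 and 4 genes at an unadjusted p under 0.05. Of 13 serotonin receptor and transport genes, 7 or fewer had enough reads, and HTR1E was higher in the ZEB2 shRNA line at day 10 (3.31 ± 0.48), HTR7 was lower at day 10 than at day 6 in WT cells and HTR1F was higher in the NKX2-5 shRNA line at day 6, the last pair with a group at no more than 3 reads per library. Of 2 globin-like genes related to MB, 1 was tested, and it passed in none of these comparisons by edgeR's quasi-likelihood test or DESeq2.

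**Figure D4:**
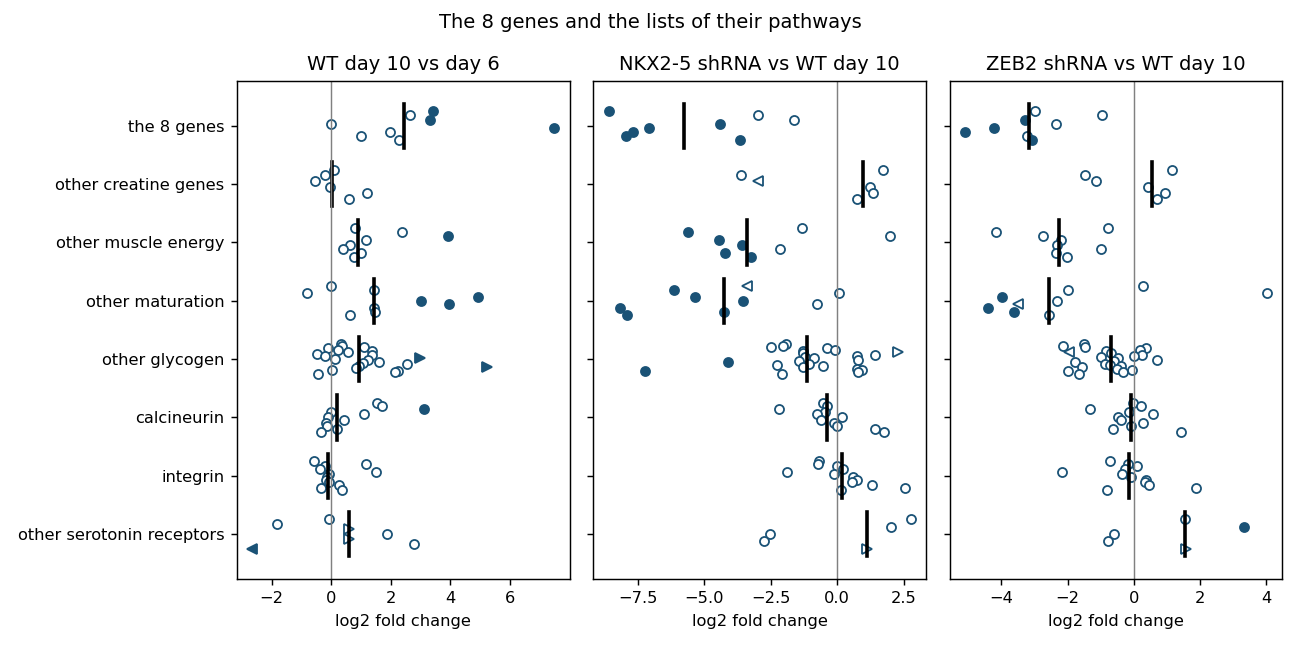
Log2 fold change of each gene of the pathway lists in WT cells from day 6 to day 10 and in the NKX2-5 and ZEB2 shRNA lines against WT at day 10. Each point is a gene, filled where it passed 8-fold at 1% FDR, triangles stand at a bound, and black bars are medians with bounds; the muscle energy and maturation lists have medians below 0 in the knockdown lines, -3.40 and -4.25 in the NKX2-5 shRNA line, and the calcineurin and integrin lists lie near it.

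Among themselves the 8 genes were alike to different degrees over the 15 group means (Pearson's r of log2(CPM + 1), given as a description, since groups of a line share their course of differentiation and the genes were chosen for it). PPP1R3A and CKM were the closest pair (r = 0.967), followed by ITGB1BP2 and PPP1R3A (0.963) and PPP1R3A and MB (0.962). ITGB1BP2 and RCAN2 were the least alike (0.435). Over 17031 genes, those most like LRRC10 were MYPN (0.999) and KBTBD13 (0.992), and those most like PPP1R3A were SRL (0.993) and FSD2 (0.99).

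Those most like CKM were GAS1RR and SYTL3 (both 0.99), those most like MB were MYADML2 (0.989) and WNT2 (0.983), and those most like ITGB1BP2 were TRIM54 and ASB2 (both 0.985). For RCAN2 they were RALGAPA1 (0.936) and PCNX1 (0.914), for HTR1B HGFAC (0.961) and SLC10A5 (0.952), and for CKMT2 MIR4292 (0.965) and MAGI2-AS3 (0.962). The closest gene to RCAN2 was thus less like it than the closest gene of each other member.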

How the data were processed

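RNA of H1 cells was sequenced from 34 total RNA libraries made with a stranded kit. Per the labels and methods, the authors aligned paired reads to GRCh37 (hg19) with TopHat2 2.0.14, Bowtie2 2.2.1.0 and SAMtools 0.1.19.0 and counted them per RefSeq gene region, and they deposited raw counts. Whether introns or strand were used in counting is not given in the sources used here. The paired reads are seen in the counts, of which 52 of 62 between 1 and 20 were even for the 8 genes. Over all rows 61.0% of the counts between 1 and 20 were even. Intervals and limits from 3 counts cover counting error only, and they treat reads as independent. Where both reads of a pair were counted, such limits are too low and the fold bounds from them too large. In 4 columns (WT and ZEB2 shRNA day 10, replicates 1 and 2), 42704 values stand beside 41627 row names, and their Spearman correlation with replicate 3 in blocks of rows had a median of 0.00792 to 0.0131, so they were not used. The number of other columns not used was 0. Of 41627 rows 40285 (96.8%) matched a gene, and 23189 genes were kept, each by its row of most reads.

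The counts were fitted with edgeR 4.0.16 (R 4.3.3, limma 3.58.1): TMM normalization, filterByExpr, glmQLFit and glmQLFTest, a prior count of 0.125, Benjamini-Hochberg adjustment over all genes tested. Each day, or each line over time, was fitted as a whole, and the SE of a log2 fold change was taken as its size over the root of the F statistic. Thresholds were 2-fold and 10% FDR at day 0, 4-fold and 10% at day 2, 8-fold and 1% at days 6 and 10 and over time, and 5% FDR for differences of changes. Fits were tested on simulated data. Alternatives were DESeq2 1.42.0, the edgeR exact test, DESeq2 size factors, no normalization factors, no filter, a prior count of 2, the second RefSeq row, 5% FDR without a fold threshold, 1 fit of all libraries, replicate number as a block (at day 10 fitted without the NKX2-5 shRNA libraries), and leaving out each library. The members, pathway lists and marker lists (cardiomyocyte, skeletal muscle, smooth muscle, erythroid, hepatic, endothelial, pluripotency) were chosen with earlier results of these data known. Named genes are the 8 members, up to 2 called genes of each list with the largest change per comparison, and the 2 genes most like each member among those with at least 1 CPM in a group. Replicates of a group differed beyond sampling noise (chi-square per gene 5.16 to 102). Promoters are RefSeq's on GRCh38.p14.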

Additional observations from a re-analysis of the deposited data

Results flagged for a closer look

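The 3 differences between lines in the change from day 6 to day 10 below passed a test of the difference itself (edgeR quasi-likelihood, 5% FDR over all genes). The log2 difference from the change in WT cells was -3.43 for RCAN2 and -1.73 for CKMT2 in the NKX2-5 shRNA line, and -2.27 for RCAN2 in the ZEB2 shRNA line. RCAN2 was higher at day 10 than at day 6 in WT cells in both libraries (103.8 and 81.4 CPM after 18.6 and 20.1 CPM) whereas it stood at 17.8 and 16.0 and then 6.44 and 8.27 CPM in the NKX2-5 shRNA line and at 12.0 and 9.81 and then 12.4 and 9.73 CPM in the ZEB2 shRNA line. RCAN2 is among the genes chosen from such changes, so its values are a description. Those of CKMT2 from day 6 on are a description too. The CKMT2 difference was -1.53 to -1.37 in the 3 fits with 1 library left out that lost the call. No library was tested for standing apart from its group, since a group held 2.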

How the results depend on the processing

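Of 1330 values of single members under the alternatives, 1225 kept their direction and side of the threshold, 50 kept the direction and lost the call, 23 gained a call and 32 turned in sign; the cause was not tested. The counts of members called moved by over 1.5 times in these cases. At 5% FDR with no fold threshold they were 7 instead of 3 for WT day 10 against day 6, 5 instead of 1 for the ZEB2 shRNA line and 2 instead of 0 for the NKX2-5 shRNA line between the same days, and, against WT, 2 instead of 0 for ZNF503 shRNA day 2, 6 instead of 1 for ZEB2 shRNA day 6 and 7 instead of 4 for ZEB2 shRNA day 10. In the same order, 8, 8, 5, 3, 7 and 8 members were tested. Of all genes tested, those past 5% FDR in either direction were 9893 of 17217, 11237 of 17750, 8695 of 17708, 4443 of 16521, 1810 of 16443 and 3100 of 17004. In 1 fit of all libraries they were 1 instead of 0 for NKX2-5 shRNA day 10 against day 6, 0 instead of 1 for NKX2-5 shRNA day 0 and 2 instead of 1 for the difference of changes in the ZEB2 shRNA line. DESeq2 gave 0 for NKX2-5 shRNA day 0, and 2 instead of 1 and 5 instead of 2 for the differences of changes in the ZEB2 and NKX2-5 shRNA lines. Without normalization factors the count was 0 for ZEB2 shRNA day 6 and 2 for ZEB2 shRNA day 10, and with a prior count of 2 it was 0 for ZEB2 shRNA day 6.

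With 1 library left out, a lone library being assumed to vary like the other groups, the counts ranged from 0 to 1 for NKX2-5 shRNA day 10 against day 6, from 0 to 1 for NKX2-5 shRNA day 0, from 0 to 2 for ZEB2 shRNA day 6, from 3 to 7 for NKX2-5 shRNA day 10, from 0 to 0 for ZEB2 shRNA day 10, and from 1 to 4 for the difference of changes in the NKX2-5 shRNA line.

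The log2 fold changes that turned in sign were these. ITGB1BP2 in WT cells from day 6 to day 10 was -0.0062 in 1 fit, -0.0035 with DESeq2, -0.002 with its size factors, -0.1254 without the filter, -0.0095 without normalization factors and -0.2204 to 0.2514 with 1 library left out. RCAN2 in the ZEB2 shRNA line from day 6 to day 10 was 0.0192 in 1 fit, 0.1715 without normalization factors and -0.2128 to 0.1344 with 1 library left out. With 1 library left out, the other ranges that crossed 0 were -1.2928 to 0.0844 for MB in the ZEB2 shRNA line from day 6 to day 10. Against WT at day 0 they were -0.5809 to 0.1772 for ITGB1BP2 and -0.7594 to 0.5195 for PPP1R3A in the NKX2-5 shRNA line, -0.282 to 0.008 for ITGB1BP2 and -0.5325 to 0.5314 for CKMT2 in the ZEB2 shRNA line, and -0.0191 to 0.2486 for RCAN2 and -0.7734 to 0.291 for CKMT2 in the ZNF503 shRNA line. At day 2 they were -0.3738 to 0.0977 and -0.3986 to 0.611 for ITGB1BP2 in the ZEB2 and ZNF503 shRNA lines, and at day 6 -0.3589 to 0.1573 for HTR1B in the NKX2-5 shRNA line and -0.3498 to 0.0675 for CKMT2 in the ZNF503 shRNA line. For the differences of changes they were -2.857 to 1.5341 for LRRC10 and -0.6088 to 0.4408 for PPP1R3A in the ZEB2 shRNA line, and -0.993 to 5.5334 for PPP1R3A and -3.4076 to 4.8625 for CKM in the NKX2-5 shRNA line, where CKM was -0.024 with a prior count of 2.

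Counts of all genes called moved by over 1.5 times in these cases. For ZEB2 shRNA day 10, 248 genes became 435 with DESeq2, 580 with the exact test, 478 with the block, 578 in 1 fit and 0 with any library left out, and the share of higher calls was 78.7% without normalization factors beside 66.9%. For ZEB2 shRNA day 2, 22 became 41 without the filter and 49 with the exact test, for ZNF503 shRNA day 0, 433 became 240 in 1 fit, and for the differences of changes 1098 became 2082 with DESeq2 and 2925 in 1 fit in the ZEB2 shRNA line (80.3% higher without normalization factors beside 60.7%) and 4361 became 6656 in 1 fit in the NKX2-5 shRNA line. With 1 library left out, the lowest counts were 436 beside 681 for NKX2-5 shRNA day 0, 166 beside 372 for ZEB2 shRNA day 0, 119 beside 433 for ZNF503 shRNA day 0, 13 beside 22 for ZEB2 shRNA day 2, 49 beside 76 for ZEB2 shRNA day 6, 398 beside 1243 for NKX2-5 shRNA day 10, 440 beside 980 for NKX2-5 shRNA day 10 against day 6, and 178 beside 1098 and 2287 beside 4361 for the differences of changes in the ZEB2 and NKX2-5 shRNA lines, the last reaching 6607 without NKX2-5 shRNA day 10 replicate 2.

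The replicate numbers do not pair the libraries: same-numbered libraries of 2 groups had correlations of their deviations from -0.082 to 0.054 at days 0 to 6 and -0.16 for ZEB2 shRNA day 10. With replicate number as a block, the members called were 0 instead of 1 for NKX2-5 shRNA day 0 and 6 instead of 4 for ZEB2 shRNA day 10, where PPP1R3A and CKM were added, and no other call changed. The day 10 fit with the block also left out the NKX2-5 shRNA libraries and tested 16496 genes instead of 17004. What the block and the missing libraries each added cannot be told apart. Depth limits LRRC10, PPP1R3A, MB and CKM in the knockdown lines, where 3 reads correspond to 0.0499 to 0.221 CPM in the libraries of days 6 and 10.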
